A study of Homo sapiens with 24 samples.

Results

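IMR-32 cells labelled for the transgene HOXC9 were compared with IMR-32 cells labelled for GFP at 6 matched hours. The members are the 12 arrays whose labels name IMR-32, 6 with HOXC9 and 6 with GFP (1 each at 0 h and at 6, 12, 24, 48 and then 96 h), out of 24 arrays in the series. The other 12 arrays hold the same design in SK-N-AS, a second neuroblastoma line. IMR-32 is a human neuroblastoma line that carries an amplified MYCN oncogene, and GFP, green fluorescent protein, is the control transgene. The labels give the line, the transgene and the hour, and no vector, promoter, clone or treatment. They do not say whether 0 h comes before the transgene was switched on, or whether the hours are separate cultures. Each arm has 1 array per hour, so the 6 hours stand in for replicates and p-values measure the spread between these arrays, which may be technical.

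HOXC9 is a homeobox transcription factor of the HOXC cluster, one of the gene clusters that give cells of the embryo their position along the head-to-tail axis. Neuroblastoma arises from the sympathoadrenal lineage of the neural crest, and its cells keep many genes of immature sympathetic neurons, among them the noradrenergic factors HAND2, PHOX2A, GATA2 and GATA3. MYCN, when amplified, drives growth and restrains differentiation in these tumours. The design asks how mean expression differed between HOXC9 and GFP cells of a line.

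Expression was read as Cy3 fluorescence on one-colour oligonucleotide arrays, and all levels are log2 intensities of a gene's probe. A difference is HOXC9 minus GFP on the log2 scale, so that 1 is a doubling, and is given with its standard error over 6 pairs of hours. Rises and falls name the sign of that difference between arms and not a change over time. Calls are those of limma, with p-values adjusted by Benjamini-Hochberg over 17199 genes and a limit of 0.05. Arrays correlated at 0.991 to 0.996 within the HOXC9 arm, 0.987 to 0.992 within the GFP arm and 0.973 to 0.981 between arms. No detection flags were used, so dim levels cannot be told from background, and a difference against such a level depends on the lowest intensities. As the RNA came from whole cultures, fewer cells of a kind and less RNA per cell cannot be told apart.

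The GFP arrays of 0 h and 48 h stood apart, as did the HOXC9 array of 12 h. Among 9358 genes above log2 8 in both arms, 243 were at least 2-fold lower in the GFP array of 0 h than in the mean of the other GFP hours, and 2 were higher. By that measure 53 genes were lower in the GFP array of 48 h, 50 in the HOXC9 array of 12 h and 0 to 5 in each of the other 9 arrays. Of the 243 genes, 183 were also at least 0.5 lower in the GFP array of 48 h, whose median departure over them was -0.70, while the median departure in the HOXC9 arrays lay between -0.20 and 0.17. ASPM, a mitotic spindle protein, stood at 10.34 at 0 h and 11.14 at 48 h in the GFP arm and at 13.35 to 13.51 at the other hours, against 12.86 to 13.33 in the HOXC9 arm. GOLGB1, a Golgi tether, showed the same with 10.02 and 10.64 against 12.57 to 12.64. Whether these departures are technical was not tested. With 0 and 48 h left out, 5069 genes were called in place of 7485, and of the 291 called genes that the rules and lists here single out 279 were still called, with no change of sign. With 12 h left out 6450 genes were called, and 288 of the 291 with no change of sign.

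The labelled lineage was checked against its markers. All 9 measured noradrenergic markers exceeded log2 8 in both arms, among them HAND2 at 14.29 ± 0.10 (SD, n = 6) and 14.28 ± 0.14, and their summed level ran from 16.14 to 16.65 in the HOXC9 arm and 16.40 to 16.85 in the GFP arm. PTPRC, which marks blood cells, stood at 1.94 ± 0.57 and 1.56 ± 0.78, and PECAM1, which marks endothelium, at 4.62 ± 0.19 and 3.44 ± 0.36. None of the 4 haematopoietic, 5 endothelial, 4 Schwann or 4 epithelial markers averaged above log2 8 in either arm. The summed levels were 6.51 to 7.55 and 6.78 to 7.09 for the haematopoietic list, 5.88 to 6.39 and 5.40 to 5.88 for the endothelial list, and 5.69 to 6.39 and 5.44 to 5.82 for the Schwann list. EPCAM, an epithelial marker, read 15.99 in the GFP array of 12 h alone and set the highest epithelial sum of 15.99. Of 6 fibroblast markers PDGFRB alone exceeded log2 8, at 8.21 and 9.38, while its second probe gave 0.47. The fibroblast sums were 8.49 to 8.81 and 9.46 to 9.78. The 7 mesenchymal neuroblastoma markers, of which VIM was by far the brightest, summed to 15.78 to 16.14 in the HOXC9 arm and 14.66 to 14.91 in the GFP arm, and these ranges did not overlap. Among the 7, VIM and YAP1 were higher and CD44, FN1 and PRRX1 lower. PRRX1 was dim, at 1.12 and 2.23. Its call was lost without 0 h (adjusted p = 0.067) and with 50 units of intensity added to both arms (adjusted p = 0.0837). The call of CD44 was lost with 0 and 48 h left out (adjusted p = 0.080), and 1 of its other probes gave 1.13.

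HOXC9 itself separated the arms at every hour. In the HOXC9 arm its level was 10.31, 9.98, 10.35, 9.97, 9.97 and 9.86 from 0 to 96 h, and in the GFP arm 6.15, 5.80, 5.63, 6.25, 6.16 and 5.88. No GFP array reached any HOXC9 array, and the difference was 4.09 ± 0.13 (adjusted p = 4.04e-06), with a two-sided exact sign-flip p of 0.03125, the smallest that 6 pairs allow. The labels do not say whether the probe reads a stretch of HOXC9 that is present in the transgene. At 0 h the difference already stood at 4.16.

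The neighbours of HOXC9 in the HOXC cluster were also read, on dim probes. HOXC8 was at log2 5.46 to 6.54 (median 6.17) in the HOXC9 arm and 0.56 to 0.85 (median 0.80) in the GFP arm, a difference of 5.30 ± 0.12 (adjusted p = 9.53e-07), and its second probe gave 4.99. HOXC5 (difference 2.50 ± 0.27) and HOXC10 (1.86 ± 0.36) stayed below log2 5 in both arms. The second HOXC10 probe gave 0.003, at log2 0.46 in both arms. Of the 8 HOXC genes measured beside HOXC9, 3 were called higher and 2 lower. None of 10 HOXB genes was called, 1 of 10 HOXA genes was higher and 1 lower, and 3 of 8 HOXD genes were lower. Over all genes 20.3% were higher and 23.3% lower. Because the GFP levels lie near the lowest intensities, 50 units added to both arms brought the differences to 1.18 for HOXC8, 0.29 for HOXC5 and 0.23 for HOXC10. Among the cofactors that bind DNA with HOX proteins, MEIS1 was higher by 1.25 ± 0.057 (adjusted p = 1.72e-05) and MEIS2 lower, at -0.94 ± 0.067 (adjusted p = 0.000121). MEIS1 stood at log2 14.16 to 14.55 (median 14.34) in the HOXC9 arm and 12.95 to 13.21 (median 13.14) in the GFP arm.

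MYCN was slightly lower in the HOXC9 arm. Its levels there were 14.83, 14.65, 14.15, 14.61, 14.82 and 14.84 and in the GFP arm 15.35, 15.36, 15.33, 14.86, 15.04 and 15.40. The ranges missed each other by little, 14.84 against 14.86, and the difference was -0.57 ± 0.13 (adjusted p = 0.0138). A second MYCN probe, at 16.50 in both arms and so brighter in IMR-32 than the probe used, gave 0.01. The other probes gave -0.56 and -0.63. The call was lost in the joint fit with SK-N-AS (adjusted p = 0.0503) and on the probe of largest variance (adjusted p = 0.0787).

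**Figure D1:**
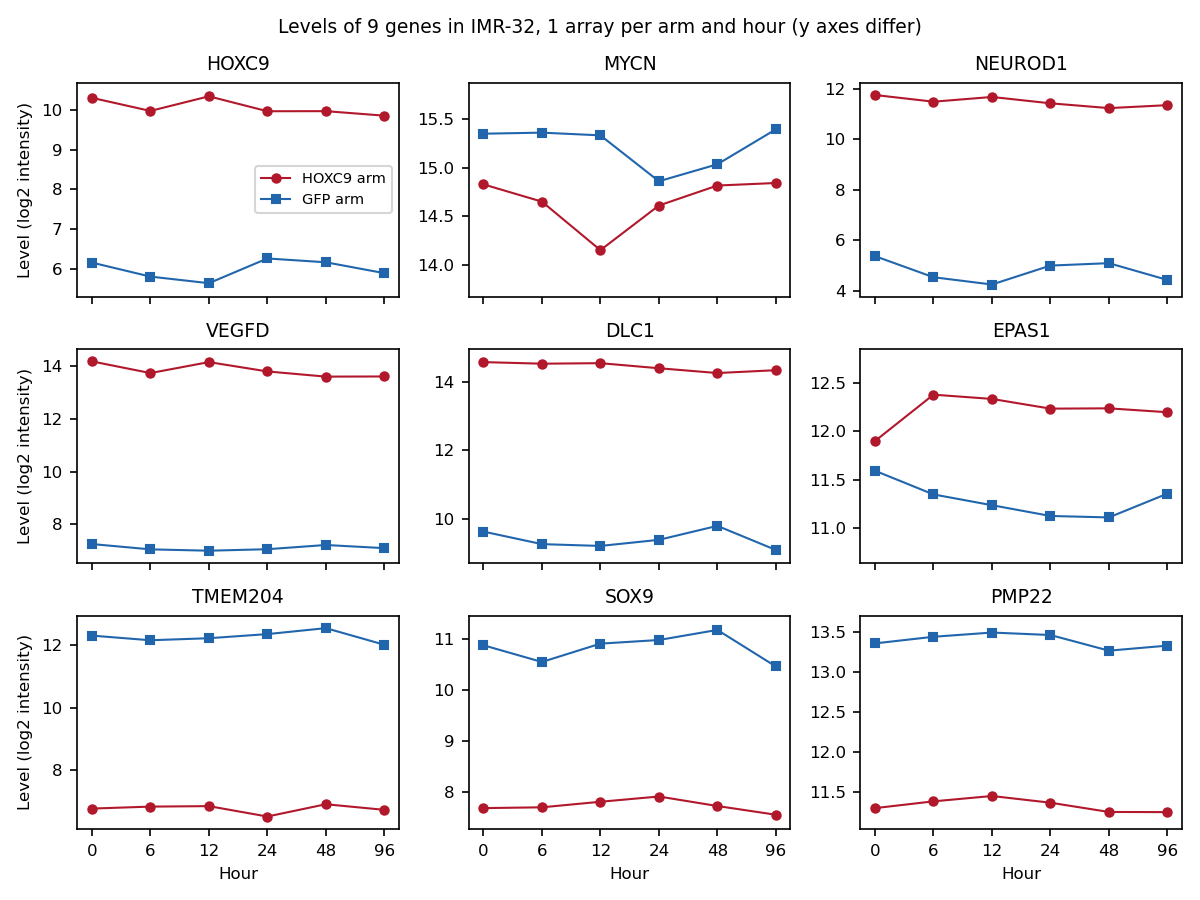
Levels (log2 intensity, y axes of different ranges) of 9 genes in IMR-32 against hour, with 1 array per point, circles for the HOXC9 arm and squares for the GFP arm. HOXC9, NEUROD1, VEGFD and DLC1 lay higher and TMEM204, SOX9 and PMP22 lower in the HOXC9 arm at all 6 hours, and EPAS1 differed by 0.31 at 0 h and by 0.84 to 1.12 later.

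Over the 6 hours 7485 of 17199 genes (43.5%) were called, 3484 higher (20.3%) and 4001 lower (23.3%) in the HOXC9 arm. These shares are the background for the counts of gene groups over 6 hours. With 0 and 48 h left out the shares were 14.5% higher and 15% lower (2492 and 2577 genes), which are the background for the counts given without those hours. Of the 17199 genes, 2740 were higher and 3155 lower without 6 h, and 3016 and 3434 without 12 h. The counts were 3027 and 3416 without 24 h, 2856 and 3220 without 48 h, and 3157 and 3774 without 96 h. Calls over all genes thus also fell, and these counts are the background for lists given without 1 of those hours. The median difference of all genes was -0.01, but the deposited arrays share 1 distribution, so a shift common to all genes could not have been seen. Most called differences were small, with a median size of 0.44, and 957 genes (5.56%) were at least 2-fold higher and 413 (2.40%) at least 2-fold lower. Restricted to 9358 genes above log2 8 in both arms, 4213 (45.0%) were called, 1818 higher (19.4%) and 2395 lower (25.6%). Of these, 123 (1.31%) rose and 82 (0.876%) fell by at least 2-fold.

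The larger differences among bright genes kept their sign from hour to hour. All 205 of these genes kept their sign at each of the 6 hours, and 203 had arms that did not overlap, against 25.6% of all genes tested. The standard deviation of their difference over the hours had a median of 0.21, against a median difference of 1.38 in size. Since the 205 genes were chosen on the 6-hour mean, these figures describe them and test nothing. Among 8611 genes whose brighter arm exceeded log2 9, 197 (2.29%) were called and at least 2-fold higher and 106 (1.23%) lower. Hour by hour, with 1 array a side and no test, 475 of the 8611 (5.52%) were at least 2-fold higher and 170 (1.97%) lower at 0 h. The counts were 194 (2.25%) and 123 (1.43%) at 6 h, and 228 (2.65%) and 184 (2.14%) at 12 h. At 24 h they were 186 (2.16%) and 106 (1.23%). They were 262 (3.04%) and 105 (1.22%) at 48 h, and 188 (2.18%) and 100 (1.16%) at 96 h. Rises were most numerous at 0 and 48 h, the hours whose GFP arrays stood apart. Falls were most numerous at 12 h, the hour whose HOXC9 array had 50 genes at least 2-fold below its arm.

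The largest rises, from a rule that took the 15 largest among genes whose brighter arm exceeded log2 9, began with genes that were near background under GFP. EPHA5, a receptor of the ephrin family that guides axons, was at log2 9.26 to 9.65 (median 9.53) in the HOXC9 arm and 0.42 to 2.22 (median 0.43) in the GFP arm. The arms were far apart at every hour, with a difference of 8.77 ± 0.26 (adjusted p = 2.90e-06) and 6.07 on its second probe. RPRM, a p53-induced mediator of cell cycle arrest, was at log2 8.77 to 9.53 (median 9.20) in the HOXC9 arm and 0.67 to 3.46 (median 2.53) in the GFP arm, and PPP1R17, a phosphatase inhibitor, at log2 8.56 to 9.81 (median 9.06) in the HOXC9 arm and 1.14 to 3.0 (median 2.53) in the GFP arm. RPRM differed by 6.89 ± 0.43 and PPP1R17 by 6.77 ± 0.23, both without overlap. With 50 units added these differences were 3.90, 3.47 and 3.43.

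VEGFD, a growth factor for lymphatic endothelium, rested on a brighter GFP level. It stood at log2 13.61 to 14.19 (median 13.78) in the HOXC9 arm and 7.0 to 7.25 (median 7.07) in the GFP arm, and its difference of 6.75 ± 0.11 (adjusted p = 3.92e-07) ranged from 6.40 to 7.17 over the hours. NEUROD1, a bHLH factor that drives neuronal differentiation, was at log2 11.24 to 11.76 (median 11.46) in the HOXC9 arm and 4.26 to 5.38 (median 4.78) in the GFP arm. Every HOXC9 array exceeded every GFP array by far, and the difference was 6.71 ± 0.17 (adjusted p = 1.88e-06). IFI44, an interferon-induced gene, differed by 6.71 ± 0.13 (adjusted p = 6.61e-07) from a GFP median of 5.42. TSPYL5, of a nucleosome-assembly family, rose by 6.69 ± 0.18 and ZNF671, a KRAB zinc finger gene of chromosome 19, by 6.52 ± 0.14 (adjusted p = 9.53e-07).

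The rule named 7 more rises. EYA2, a phosphatase and transcriptional coactivator, was higher by 6.25 ± 0.10, with 7.01 on its second probe. NEUROD2, a relative of NEUROD1, differed by 5.83 ± 0.22 on the brightest probe and 1.06 on the other. PDE1A, a calmodulin-dependent phosphodiesterase, rose by 5.75 ± 0.27, PNPLA4, a lipase, by 5.66 ± 0.21, NPTX1, a synaptic pentraxin, by 5.42 ± 0.12 and SPON2, a matrix protein, by 5.31 ± 0.11. DLC1, a tumour suppressor, is the one of the 15 with a bright level in both arms: log2 14.26 to 14.57 (median 14.46) in the HOXC9 arm and 9.09 to 9.79 (median 9.32) in the GFP arm. Its 4 probes gave 3.88 to 5.37 and the difference on the brightest was 5.05 ± 0.12 (adjusted p = 1.48e-06).

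The 250 bases upstream of the annotated start are shown for VEGFD and NEUROD1, which had differences of similar size and unlike promoters. They are also shown for the nearby zinc finger genes ZNF671 and ZNF154, which were both higher in the HOXC9 arm. The sequences are those of RefSeq on GRCh38.p14, on the gene's strand (minus for all 4), at chrX:15384414-15384663, chr2:181680518-181680767, chr19:57727625-57727874 and chr19:57709205-57709454. Capitals mark CpG dinucleotides, of which they hold 2, 24, 9 and 11.
VEGFD: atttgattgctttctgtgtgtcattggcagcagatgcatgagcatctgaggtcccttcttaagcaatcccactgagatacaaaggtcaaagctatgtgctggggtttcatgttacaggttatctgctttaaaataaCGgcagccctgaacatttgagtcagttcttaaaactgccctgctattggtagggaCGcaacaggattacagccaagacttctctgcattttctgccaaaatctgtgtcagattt
NEUROD1: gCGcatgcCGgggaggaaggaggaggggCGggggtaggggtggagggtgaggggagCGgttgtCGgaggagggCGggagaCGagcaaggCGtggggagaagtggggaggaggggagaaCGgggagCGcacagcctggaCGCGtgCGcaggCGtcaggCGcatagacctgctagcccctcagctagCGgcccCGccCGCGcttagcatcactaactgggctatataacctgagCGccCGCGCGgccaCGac
ZNF671: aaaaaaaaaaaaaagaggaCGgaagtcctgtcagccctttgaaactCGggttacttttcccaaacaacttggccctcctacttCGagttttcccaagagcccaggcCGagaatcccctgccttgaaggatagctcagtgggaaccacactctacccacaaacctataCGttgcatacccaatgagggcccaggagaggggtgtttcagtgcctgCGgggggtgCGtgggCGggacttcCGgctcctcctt
ZNF154: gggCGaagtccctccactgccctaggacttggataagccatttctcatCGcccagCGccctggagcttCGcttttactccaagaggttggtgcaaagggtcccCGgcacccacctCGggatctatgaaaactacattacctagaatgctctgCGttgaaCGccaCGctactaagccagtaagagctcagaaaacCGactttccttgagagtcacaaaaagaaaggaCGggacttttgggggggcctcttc

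Over the 300 bases around the start, which add 50 bases of transcript, the observed over expected CpG ratio was 0.15 for VEGFD, 0.90 for NEUROD1, 0.50 for ZNF671 and 0.66 for ZNF154. A RefSeq promoter matched 9828 of the 17199 genes, as symbols listed with more than 1 promoter were left out. Among genes above log2 8 in both arms, the ratio exceeded 0.6 in 78.3% of 69 promoters of at least 2-fold higher genes and in 91.2% of all 5469. Where only the brighter arm had to exceed log2 9, the shares were 77.2% of 101 higher genes, 73.8% of 61 lower genes and 91.8% of 5043 in all. The letters TTTACGAC, TGATTTAC, TGATTTAT and TTTATGGC, searched on both strands as HOX-type sites, were each in 0 or 1 of the 101 promoters and in 0.14% to 0.52% of the 5043. The E-box CANNTG, the site type of NEUROD factors, was in 63.4% of the 101 and 58.8% of the 5043. These are descriptions of letters in a window and no DNA binding or methylation was measured.

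The falls were smaller. GAGE12F, a cancer-testis antigen gene, was at log2 6.02 to 6.49 (median 6.17) in the HOXC9 arm and 11.64 to 11.97 (median 11.87) in the GFP arm, with a difference of -5.61 ± 0.083 (adjusted p = 3.60e-07). GAGE genes are near-identical copies, so the probe may read several of them. TMEM204, a claudin-like membrane protein, was at log2 6.53 to 6.92 (median 6.81) in the HOXC9 arm and 12.00 to 12.53 (median 12.25) in the GFP arm, and differed by -5.48 ± 0.083 (adjusted p = 3.60e-07). Neither gene had overlapping arms. CGNL1, a junction protein, fell by 3.82 ± 0.072 (adjusted p = 6.44e-07), and its second probe gave -4.18. LIX1 followed at -3.48 ± 0.089 and -3.75 on its other probe, and CRYGD, a crystallin of the lens, at -3.12 ± 0.063 and -3.32.

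SOX9, a transcription factor of neural crest and glia, was at log2 7.55 to 7.91 (median 7.71) in the HOXC9 arm and 10.45 to 11.17 (median 10.88) in the GFP arm. All GFP arrays lay above all HOXC9 arrays, the difference was -3.09 ± 0.084 (adjusted p = 2.11e-06), and the second probe gave -3.23. ICAM2, an adhesion molecule, differed by -3.08 ± 0.054, ARHGEF26, a guanine nucleotide exchange factor, by -2.91 ± 0.079, and SPHK1, the kinase that makes sphingosine-1-phosphate, by -2.60 ± 0.071. ENPP2, which encodes the lysophosphatidic acid producing enzyme autotaxin, was at log2 8.54 to 8.73 (median 8.64) in the HOXC9 arm and 11.08 to 11.71 (median 11.35) in the GFP arm and fell by 2.76 ± 0.088 (adjusted p = 3.83e-06). NELL1, FMOD and PDIA2 fell, at -2.74 ± 0.049, -2.70 ± 0.074 and -2.73 ± 0.091. FMOD encodes fibromodulin, a collagen-binding proteoglycan, and PDIA2 a disulfide isomerase. NDRG1, a hypoxia-responsive gene, differed by -2.55 ± 0.13 (adjusted p = 2.43e-05).

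Because folds against dim levels depend on the floor, the genes above log2 8 in both arms carry the firmer sizes. After DLC1, the largest rise was FAM162B at log2 13.75 to 13.96 (median 13.90) in the HOXC9 arm and 9.09 to 9.39 (median 9.26) in the GFP arm, a difference of 4.63 ± 0.048 (adjusted p = 2.24e-07) that ranged from 4.49 to 4.78 over the hours. HSPA12A, an atypical member of the heat shock 70 family, was higher by 3.76 ± 0.095. CRABP1, the cellular retinoic acid binding protein, was at log2 12.12 to 12.86 (median 12.48) in the HOXC9 arm and 8.84 to 9.25 (median 9.09) in the GFP arm and rose by 3.43 ± 0.088 (adjusted p = 1.88e-06). PTN, the growth factor pleiotrophin, rose by 3.41 ± 0.14 and 3.83 on its second probe. GLDC, which cleaves glycine, rose by 3.22 ± 0.11, SLC12A7, a potassium chloride cotransporter, by 3.20 ± 0.092, and DPYSL3, a growth cone protein, by 3.19 ± 0.091 (adjusted p = 2.52e-06).

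PRAME, a tumour antigen, and TBX1, a T-box factor, rose by 3.19 ± 0.11 and 3.11 ± 0.094. RBFOX1, a neuronal splicing factor, was at log2 11.27 to 11.51 (median 11.32) in the HOXC9 arm and 8.01 to 8.58 (median 8.33) in the GFP arm and rose by 3.09 ± 0.087 (adjusted p = 2.33e-06). DLK1, a non-canonical Notch ligand from an imprinted locus, was at log2 14.42 to 14.69 (median 14.55) in the HOXC9 arm and 10.90 to 12.43 (median 11.43) in the GFP arm. It rose by 3.09 ± 0.22 (adjusted p = 0.000123), and its difference was smallest at 0 h. ORC5, a subunit of the origin recognition complex, differed by 3.04 ± 0.081 on its brightest probe and by -0.08 on the other, so its rise holds for that probe alone. TMSB4XP8, a thymosin pseudogene whose probe may read the parent gene, rose by 3.0 ± 0.087 and EGFLAM, a matrix protein of the synapse, by 2.92 ± 0.12.

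Among the falls bright in both arms, PMP22, a myelin protein, held nearly the same difference throughout. It stood at log2 11.24 to 11.45 (median 11.33) in the HOXC9 arm and 13.27 to 13.49 (median 13.40) in the GFP arm and its hourly differences ran from -2.10 to -2.02, with a mean of -2.06 ± 0.035 (adjusted p = 4.79e-07). AHNAK, a large scaffold protein, fell by 2.48 ± 0.082 (adjusted p = 4.52e-06) on its brightest probe, and 5 probes gave -0.97 to -3.23. ADM, the peptide adrenomedullin, fell by 2.07 ± 0.082. The ammonium transporter RHBG, the membrane protein LAMP5 and the synapse organizer LRRTM1 fell, at -2.38 ± 0.14, -2.21 ± 0.071 and -1.85 ± 0.074. The membrane-bound chemokine CX3CL1 was lower by 2.04 ± 0.076 (adjusted p = 7.69e-06).

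**Figure D2:**
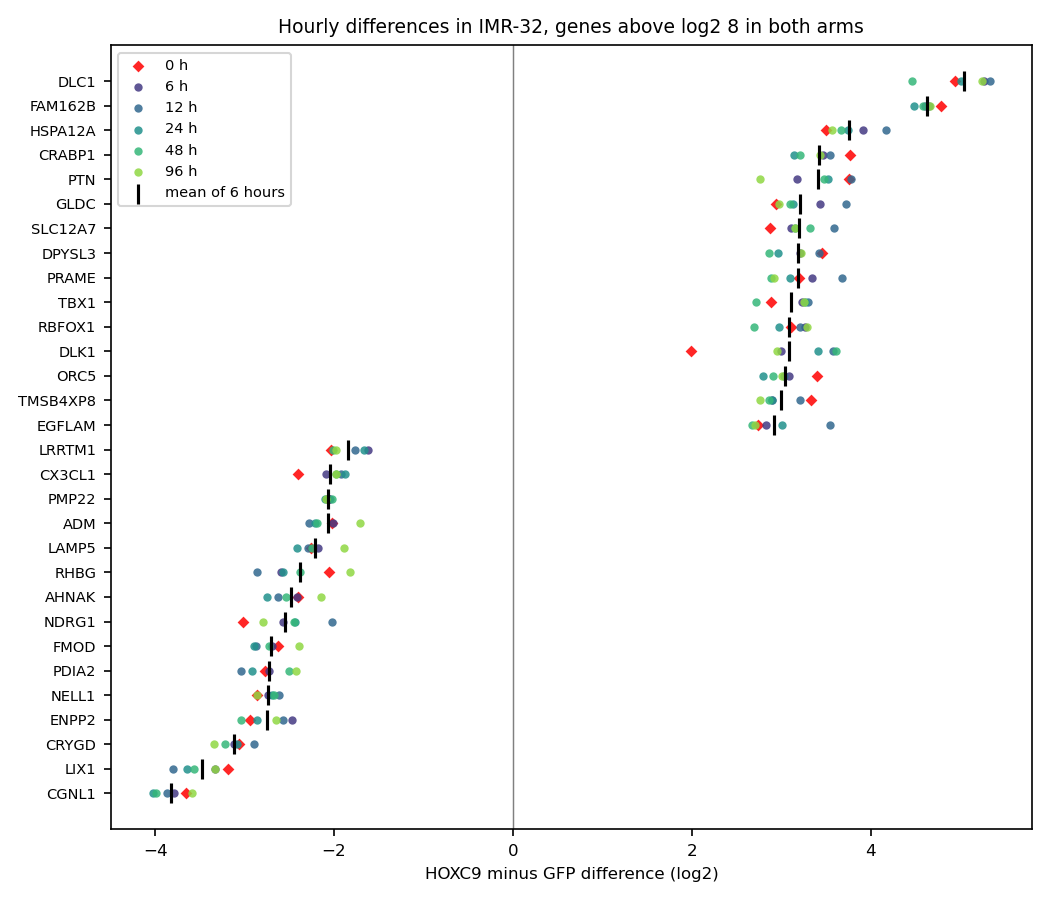
HOXC9 minus GFP differences (log2, x axis) of the 15 largest rises and 15 largest falls among genes above log2 8 in both arms, with 1 point per hour, diamonds for 0 h and a bar at the mean of 6 hours. Each gene keeps its side of 0 at every hour, and DLK1 has its lowest difference at 0 h.

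Factors of neuronal fate changed on both sides. Of 31 proneural and inhibitory bHLH genes measured, 12 were higher and 5 lower (9 and 3 with 0 and 48 h left out). Beside NEUROD1 and NEUROD2, the related NEUROD6 was at log2 6.99 to 8.51 (median 7.61) in the HOXC9 arm and 0.51 to 3.14 (median 0.58) in the GFP arm, and its difference was 6.70 ± 0.47 (adjusted p = 0.000114). HES1, a Notch-induced repressor of proneural genes, was at log2 3.45 to 4.11 (median 3.59) in the HOXC9 arm and 6.45 to 7.39 (median 6.88) in the GFP arm. It fell by 3.22 ± 0.12 (adjusted p = 7.86e-06), with no overlap, from a GFP level that is itself modest. FOXD1, a forkhead factor, was at log2 11.34 to 11.94 (median 11.65) in the HOXC9 arm and 6.27 to 7.41 (median 6.60) in the GFP arm and rose by 4.91 ± 0.15 (adjusted p = 3.19e-06), with 0.52 on its dimmer second probe. The ETS factor ETS1 fell by 2.51 ± 0.094 (adjusted p = 7.63e-06). Its relative FLI1 fell by 6.42 ± 0.30 (adjusted p = 1.89e-05), to below log2 2 in every HOXC9 array, and with 50 units added its difference was -2.01.

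Most noradrenergic genes moved by small amounts, with a median size of 0.38, but some moved far. Of 22 measured core factors 5 were higher and 11 lower (3 and 7 with 0 and 48 h left out, 3 and 8 without 12 h), and the median difference was -0.21. ISL1, a LIM homeobox factor of sympathetic neurons, was at log2 11.49 to 11.94 (median 11.73) in the HOXC9 arm and 12.27 to 12.55 (median 12.42) in the GFP arm. The arms did not overlap and the difference was -0.71 ± 0.077 (adjusted p = 0.000739). GATA2 and GATA3 differed by -0.41 and -0.24 (adjusted p = 0.033 and 0.0468), and HAND2 by 0.02 (adjusted p = 0.839). Of the 22, 2 were at least 2-fold higher and 2 at least 2-fold lower, 18.2% against 7.97% of all genes. TFAP2A had the largest difference of the list, at 2.90 (adjusted p = 3.91e-06), and SIX3, a homeobox factor, fell by 1.73 ± 0.060.

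Genes of catecholamine handling split. Of 19 measured, 6 were higher and 9 lower, with a median of -0.29. TH, the rate-limiting enzyme of catecholamine synthesis, was at log2 10.17 to 10.78 (median 10.57) in the HOXC9 arm and 8.91 to 9.45 (median 9.04) in the GFP arm and rose by 1.44 ± 0.095 (adjusted p = 8.73e-05), but its second probe gave -0.02. DBH, which turns dopamine into noradrenaline, was at log2 8.25 to 8.90 (median 8.61) in the HOXC9 arm and 8.67 to 9.47 (median 9.09) in the GFP arm, so that the arms overlapped, and fell by 0.46 ± 0.076 (adjusted p = 0.00367). MAOA, which degrades monoamines, was at log2 9.09 to 9.43 (median 9.16) in the HOXC9 arm and 10.47 to 10.94 (median 10.70) in the GFP arm and fell by 1.51 ± 0.098 (adjusted p = 7.84e-05). The dopamine receptor DRD2 fell by 1.72 ± 0.097, and the adrenergic receptor ADRA2A fell by 1.17 ± 0.085.

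Several neuropeptides rose. NMU, neuromedin U, was at log2 12.59 to 12.90 (median 12.70) in the HOXC9 arm and 9.99 to 10.14 (median 10.09) in the GFP arm, a difference of 2.66 ± 0.056 (adjusted p = 9.26e-07). ADCYAP1, which encodes the peptide PACAP, was at log2 10.74 to 11.35 (median 11.09) in the HOXC9 arm and 7.97 to 8.48 (median 8.30) in the GFP arm and rose by 2.79 ± 0.11 (adjusted p = 1.01e-05). NPY, the neuropeptide of sympathetic neurons, rose by 1.51 ± 0.050 (adjusted p = 4.71e-06). No arms overlapped for these 3 genes. VIP, a peptide related to PACAP, was at log2 5.71 to 6.92 (median 6.35) in the HOXC9 arm and 8.43 to 9.49 (median 9.08) in the GFP arm and fell by 2.73 ± 0.23 (adjusted p = 0.000253). Over 34 peptide and granin genes 9 were higher and 8 lower (7 and 7 with 0 and 48 h left out). That is near the 20.3% and 23.3% of all genes. The serotonin-gated channel HTR3A rose by 2.29 ± 0.090 (adjusted p = 9.45e-06) from a GFP median of 8.71.

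Synaptic and channel genes moved in both directions. Of 44 vesicle and active zone genes 14 were higher and 8 lower (13 and 5 without 48 h), among them SYT6, a synaptotagmin, at log2 8.45 to 9.10 (median 8.68) in the HOXC9 arm and 4.32 to 5.0 (median 4.41) in the GFP arm and a difference of 4.21 ± 0.068 (adjusted p = 4.55e-07). Of 63 potassium channel genes 19 were higher and 14 lower. KCNB2, a delayed rectifier subunit, was at log2 9.42 to 10.07 (median 9.65) in the HOXC9 arm and 5.82 to 6.42 (median 6.30) in the GFP arm, with a difference of 3.49 ± 0.097 (adjusted p = 2.27e-06), and KCNS3, a silent subunit that joins channels of that kind, rose by 1.37 ± 0.080. Of 44 transmitter receptor genes 13 were higher and 15 lower. GRIN1, the obligatory subunit of NMDA receptors, was at log2 9.70 to 10.21 (median 9.90) in the HOXC9 arm and 11.34 to 11.79 (median 11.56) in the GFP arm and fell by 1.64 ± 0.069 (adjusted p = 1.24e-05). GABRE, a GABA-A receptor subunit, rose by 2.62 ± 0.054.

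The neuronal cytoskeleton leaned higher, with 13 of 31 genes higher and 5 lower (8 and 4 with 0 and 48 h left out). DCX, the microtubule protein of migrating neurons, was at log2 10.69 to 11.44 (median 11.21) in the HOXC9 arm and 7.56 to 8.29 (median 7.81) in the GFP arm and rose by 3.28 ± 0.14 (adjusted p = 1.36e-05). NEFL, the light neurofilament, rose by 0.57 ± 0.055 (adjusted p = 0.000449). VIM, the intermediate filament vimentin, stood at log2 15.76 to 16.12 (median 15.84) in the HOXC9 arm and 14.62 to 14.86 (median 14.76) in the GFP arm, a difference of 1.16 ± 0.059 (adjusted p = 2.79e-05). SMAD3, the TGF-beta signal transducer, fell by 1.14 ± 0.055 (adjusted p = 2.17e-05). FN1, fibronectin, differed by -0.61 ± 0.052 on its brightest probe and by -0.85 to 0.20 on 4 others, and its call was lost on the mean of its probes (adjusted p = 0.0933). Of the others, 1 was about as bright in IMR-32, at 6.91 and 6.82, and gave 0.09. Of 27 mesenchymal identity genes 6 were higher, 5 of them at least 2-fold, and 12 lower, 2 of them at least 2-fold (3 and 8 with 0 and 48 h left out, 3 and 11 without 96 h). YAP1, a coactivator of the Hippo pathway, was among the rises with 1.68 at dim levels (adjusted p = 0.0263).

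Guidance genes moved in both directions. Of 46 semaphorin, netrin and slit genes 11 were higher and 17 lower, with a median of -0.16, and without 12 h 11 were higher and 11 lower. SEMA5A, a semaphorin, was at log2 6.79 to 7.0 (median 6.87) in the HOXC9 arm and 9.18 to 9.42 (median 9.33) in the GFP arm and fell by 2.43 ± 0.053 (adjusted p = 9.53e-07). The netrin receptor UNC5D fell by 2.90 ± 0.16 and NRP1, a semaphorin and VEGF co-receptor, fell by 1.38 ± 0.094 (adjusted p = 9.78e-05), while ROBO1, the slit receptor, rose by 0.89 ± 0.064. RELN, which encodes the guidance protein reelin, was at log2 7.48 to 7.97 (median 7.68) in the HOXC9 arm and 0.78 to 1.58 (median 1.0) in the GFP arm, a difference of 6.61 ± 0.11 (adjusted p = 4.79e-07) that came to 2.30 with 50 units added. Its receptor VLDLR fell by 0.77 ± 0.048 and the kinase FYN, which acts below it, rose by 0.44 ± 0.050. EFNB2, an ephrin, rose by 1.38 ± 0.079 (adjusted p = 4.55e-05), and EFNB3 differed by -0.68 ± 0.038 on its brightest probe and by 0.23 on the other.

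Of 24 integrin genes 11 were higher and 1 lower, against 20.3% and 23.3% of all genes, with a median of 0.34. ITGA6, a laminin receptor chain, was at log2 5.90 to 6.27 (median 6.23) in the HOXC9 arm and 4.22 to 5.07 (median 4.70) in the GFP arm and rose by 1.46 ± 0.096 (adjusted p = 8.66e-05). ITGA2, a collagen receptor chain, rose by 1.12 ± 0.10. Its other probes, all dim, gave 0.06 to 0.87, and the call was lost on the probe of largest variance (adjusted p = 0.140). Only 4 of the 24 exceeded log2 8 in both arms, so many of these differences lie at dim levels. Of 30 cadherin and protocadherin genes 12 were higher and 6 lower, with PCDH17 at log2 10.84 to 11.18 (median 11.01) in the HOXC9 arm and 9.72 to 10.14 (median 9.96) in the GFP arm and a difference of 1.05 ± 0.060 (adjusted p = 4.46e-05). PCDH9 fell by 1.99 ± 0.14 (adjusted p = 0.000115), from 8.60 to 10.15 (median 10.07) in the GFP arm.

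Collagens and matrix glycoproteins were even, with 15 higher and 15 lower of 49. FBLN2, fibulin-2 of elastic fibres, was at log2 7.73 to 8.14 (median 7.79) in the HOXC9 arm and 9.88 to 10.54 (median 10.04) in the GFP arm and fell by 2.30 ± 0.055 (adjusted p = 1.50e-06). FBN1, fibrillin, fell by 1.27 ± 0.049 and TNC, tenascin C, rose by 1.66 ± 0.066. Their second probes were dim and gave -0.39 and 0.48. The FBN1 call was lost on the probe of largest variance (adjusted p = 0.455). ADAMTS5, a protease that cleaves aggrecan, was at log2 10.14 to 10.82 (median 10.47) in the HOXC9 arm and 5.76 to 6.39 (median 6.21) in the GFP arm and rose by 4.33 ± 0.14 (adjusted p = 3.83e-06). The gelatinase MMP2 fell by 2.15 ± 0.17, and TIMP3, an inhibitor of such proteases, rose by 0.77 ± 0.050.

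Growth factor genes moved in both directions. FGF13, an intracellular FGF homologue that binds sodium channels, was at log2 11.26 to 11.64 (median 11.34) in the HOXC9 arm and 6.26 to 6.70 (median 6.45) in the GFP arm and rose by 4.95 ± 0.071 (adjusted p = 3.60e-07). FGFR2, a receptor, was at log2 8.22 to 8.70 (median 8.49) in the HOXC9 arm and 9.53 to 10.11 (median 9.79) in the GFP arm and fell by 1.32 ± 0.052 (adjusted p = 9.54e-06). FGF10, a ligand of that receptor, fell by 5.02 ± 0.16 (adjusted p = 4.36e-06) to below log2 4 in the HOXC9 arm, and the difference was -2.15 with 50 units added. SPRY1, an inhibitor induced by FGF signals, rose by 5.09 ± 0.22 from near background. Over 35 genes of FGF signalling 11 were higher and 5 lower.

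In the IGF group 11 of 19 measured genes were higher and 3 lower, with a median of 0.32, but 6 and 2 without 6 h and 7 and 2 without 24 h. IGFBP5, an IGF binding protein, was at log2 11.62 to 12.06 (median 11.93) in the HOXC9 arm and 9.54 to 10.15 (median 9.82) in the GFP arm and rose by 2.07 ± 0.099 (adjusted p = 2.16e-05). IGFBP7 rose by 2.40 ± 0.076 (adjusted p = 3.83e-06), while IGFBP4 (-1.02 ± 0.12) and IGFBP3 (-2.15 ± 0.11) fell. The second IGFBP3 probe gave -0.17. GRB10, an imprinted adaptor that restrains the insulin and IGF receptors, was at log2 10.12 to 10.38 (median 10.27) in the HOXC9 arm and 6.54 to 7.04 (median 6.90) in the GFP arm. It rose by 3.40 ± 0.071 (adjusted p = 9.11e-07) with no overlap. GFRA1, the GDNF co-receptor, was at log2 9.63 to 10.23 (median 9.83) in the HOXC9 arm and 6.02 to 6.89 (median 6.29) in the GFP arm and rose by 3.52 ± 0.077 (adjusted p = 9.53e-07), and its partner RET rose by 1.59 ± 0.072 (adjusted p = 1.73e-05). ALK, a receptor kinase mutated in some neuroblastomas, fell by 0.64 ± 0.049 (adjusted p = 0.000167). ERBB4, a neuregulin receptor, rose by 5.97 ± 0.17 (adjusted p = 2.33e-06) from a GFP median of 2.35. Its second probe, at log2 3.30 and 1.41, gave 1.89.

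Of 45 BMP, activin and TGF-beta genes 11 were higher and 14 lower. BAMBI, a pseudoreceptor that blocks TGF-beta signals, was at log2 12.40 to 12.75 (median 12.56) in the HOXC9 arm and 13.98 to 14.34 (median 14.15) in the GFP arm and fell by 1.58 ± 0.076 (adjusted p = 2.17e-05). GDF15, a stress-induced member of the family, fell by 2.05 ± 0.069 (adjusted p = 4.71e-06), and INHBA, the activin A subunit, rose by 3.34 ± 0.12. DKK1, a Wnt antagonist, was at log2 7.08 to 7.46 (median 7.29) in the HOXC9 arm and 9.20 to 9.89 (median 9.59) in the GFP arm and fell by 2.29 ± 0.11 (adjusted p = 2.39e-05). Over 53 Wnt genes 11 were higher and 11 lower (7 and 8 with 0 and 48 h left out). The Notch ligand JAG1 fell by 1.82 ± 0.11 (adjusted p = 5.26e-05), NOTCH4 fell by 1.24 ± 0.062, and MFNG, a glycosyltransferase that modifies Notch, was at log2 10.11 to 11.01 (median 10.17) in the HOXC9 arm and 6.73 to 7.90 (median 7.16) in the GFP arm and rose by 3.13 ± 0.13 (adjusted p = 1.05e-05). Of 23 Notch genes 4 were higher and 7 lower (4 and 4 with 0 and 48 h left out).

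VEGFC rose with VEGFD, by 0.65 ± 0.074 (adjusted p = 0.000857), and NRP2, a co-receptor for both, fell by 1.09 ± 0.12. Of 18 VEGF family and endothelial receptor genes 8 were higher and 4 lower, and 6 of the 18 exceeded log2 8 in both arms. Of 19 genes of retinoic acid metabolism and reception, CRABP1 among them, 6 were higher, 3 of these at least 2-fold, and 4 lower, with a median of -0.12. RBP4, the carrier of retinol, was at log2 8.0 to 8.61 (median 8.06) in the HOXC9 arm and 3.45 to 4.11 (median 3.76) in the GFP arm and rose by 4.42 ± 0.10 (adjusted p = 1.13e-06), and CYP26A1, which degrades retinoic acid, rose by 4.59 ± 0.37 from near background.

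Immune genes were mixed. IFI16, a DNA sensor, was at log2 8.21 to 8.80 (median 8.39) in the HOXC9 arm and 4.25 to 5.01 (median 4.62) in the GFP arm and rose by 3.82 ± 0.10 (adjusted p = 2.11e-06). USP18, which removes the interferon-induced modifier ISG15, rose by 0.92 ± 0.043. Still, 12 of 43 interferon-stimulated genes were higher and 6 lower, and the median level of the list was below log2 5. Class I genes fell: HLA-B was at log2 10.85 to 11.16 (median 11.04) in the HOXC9 arm and 11.64 to 12.04 (median 11.82) in the GFP arm and fell by 0.84 ± 0.057 (adjusted p = 9.78e-05), HLA-F differed by -0.74 ± 0.061 and HLA-C by -0.55 ± 0.059. These genes are near-identical in parts and their probes may share signal. Over 22 class I presentation genes 4 were higher and 8 lower (1 and 7 with 0 and 48 h left out). CXCL12, a homing chemokine, was at log2 9.30 to 9.64 (median 9.43) in the HOXC9 arm and 10.79 to 11.23 (median 11) in the GFP arm and fell by 1.57 ± 0.067 (adjusted p = 1.29e-05).

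Among 39 cancer-testis genes 2 were higher and 9 lower, 7 of the 9 at least 2-fold. PRAME rose, as given above, and PAGE5 fell by 1.74 ± 0.10 (adjusted p = 5.32e-05) from a GFP median of 7.0. Only 1 of the 39 exceeded log2 8 in both arms, and families such as GAGE and PAGE cannot be told apart on single probes.

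Stress genes called here differed little. Of 26 genes that answer misfolded proteins or scarce amino acids, 15 were higher and 0 lower, with a median of 0.25, and none reached 2-fold. ATF3, a stress-induced bZIP factor, was at log2 10.20 to 10.42 (median 10.35) in the HOXC9 arm and 9.51 to 9.63 (median 9.57) in the GFP arm and rose by 0.75 ± 0.055 (adjusted p = 0.00013). HSPA5, the main chaperone of the endoplasmic reticulum, rose by 0.39 ± 0.045 (adjusted p = 0.000983) and HERPUD1, of its degradation machinery, by 0.39 ± 0.046. With 0 and 48 h left out 11 were higher and 0 lower. Of 14 housekeeping genes 9 were higher and 2 lower, with a median of 0.23, so a shift of that size was not confined to stress genes. Heat shock chaperones had 9 higher and 3 lower of 21 (6 and 1 with those hours left out), with HSP90AB1, the constitutive cytosolic chaperone, at log2 15.28 to 15.42 (median 15.38) in the HOXC9 arm and 14.77 to 14.96 (median 14.92) in the GFP arm and 0.46 ± 0.056 (adjusted p = 0.00108). Of 36 hypoxia and glycolysis genes 13 were higher and 4 lower (8 and 2 with 0 and 48 h left out, 9 and 8 without 12 h, 8 and 4 without 6 h). CA12, a carbonic anhydrase, rose by 2.22 ± 0.093 (adjusted p = 1.19e-05) and EGLN3, an oxygen-sensing hydroxylase, by 1.70 ± 0.097, against the falls of ADM and NDRG1 given above.

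Proliferation genes shifted little. Of 35 genes of DNA replication 11 were higher and 2 lower and none reached 2-fold. With 0 and 48 h left out, 4 were higher and 0 lower. PCNA, the sliding clamp, was at log2 14.66 to 14.81 (median 14.74) in the HOXC9 arm and 14.28 to 14.53 (median 14.44) in the GFP arm and rose by 0.31 ± 0.047 (adjusted p = 0.0029). Of 28 mitotic genes 8 were higher and 1 lower (5 and 0), and 4 of the 28 belong to the genes that were low in the GFP array of 0 h. KIF2C, a mitotic kinesin, was at log2 13.09 to 13.34 (median 13.13) in the HOXC9 arm and 12.54 to 12.62 (median 12.59) in the GFP arm and rose by 0.58 ± 0.053 (adjusted p = 0.000344). CDK inhibitor genes rose as well, CDKN1B (p27) by 0.80 ± 0.072 (adjusted p = 0.000328) and CDKN2A by 0.67 ± 0.065, while CDKN1C (p57), an imprinted gene, fell by 0.73 ± 0.058 (adjusted p = 0.000194). Cytochrome c, CYCS, the trigger of the apoptosome, was at log2 13.62 to 13.90 (median 13.76) in the HOXC9 arm and 12.35 to 13.02 (median 12.81) in the GFP arm and rose by 0.98 ± 0.071 (adjusted p = 0.000128). Of its 2 other probes 1 gave 0.43 and the other -0.08. The BH3-only gene HRK differed by 0.87 ± 0.097 on its brightest probe and by -0.09 on the other, at log2 8.59 and 8.68. BCL2L11, which encodes BIM, fell by 0.67 ± 0.065 (adjusted p = 0.000444), and BCL2 fell by 0.56 ± 0.072.

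Ribosomal protein genes stayed close to 0. Of 56 measured, 1 was higher and 11 lower (0 and 4 with 0 and 48 h left out, and 1 and 5 without 24 h or without 48 h), and the median difference was -0.08. RPL29, of the large subunit, was at log2 15.04 to 15.31 (median 15.13) in the HOXC9 arm and 15.40 to 15.68 (median 15.57) in the GFP arm and -0.39 ± 0.049 (adjusted p = 0.0013). Of 63 oxidative phosphorylation genes 15 were higher and 6 lower (8 and 2, and 9 and 2 without 6 h), with differences between -0.29 and 0.59.

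**Figure D3:**
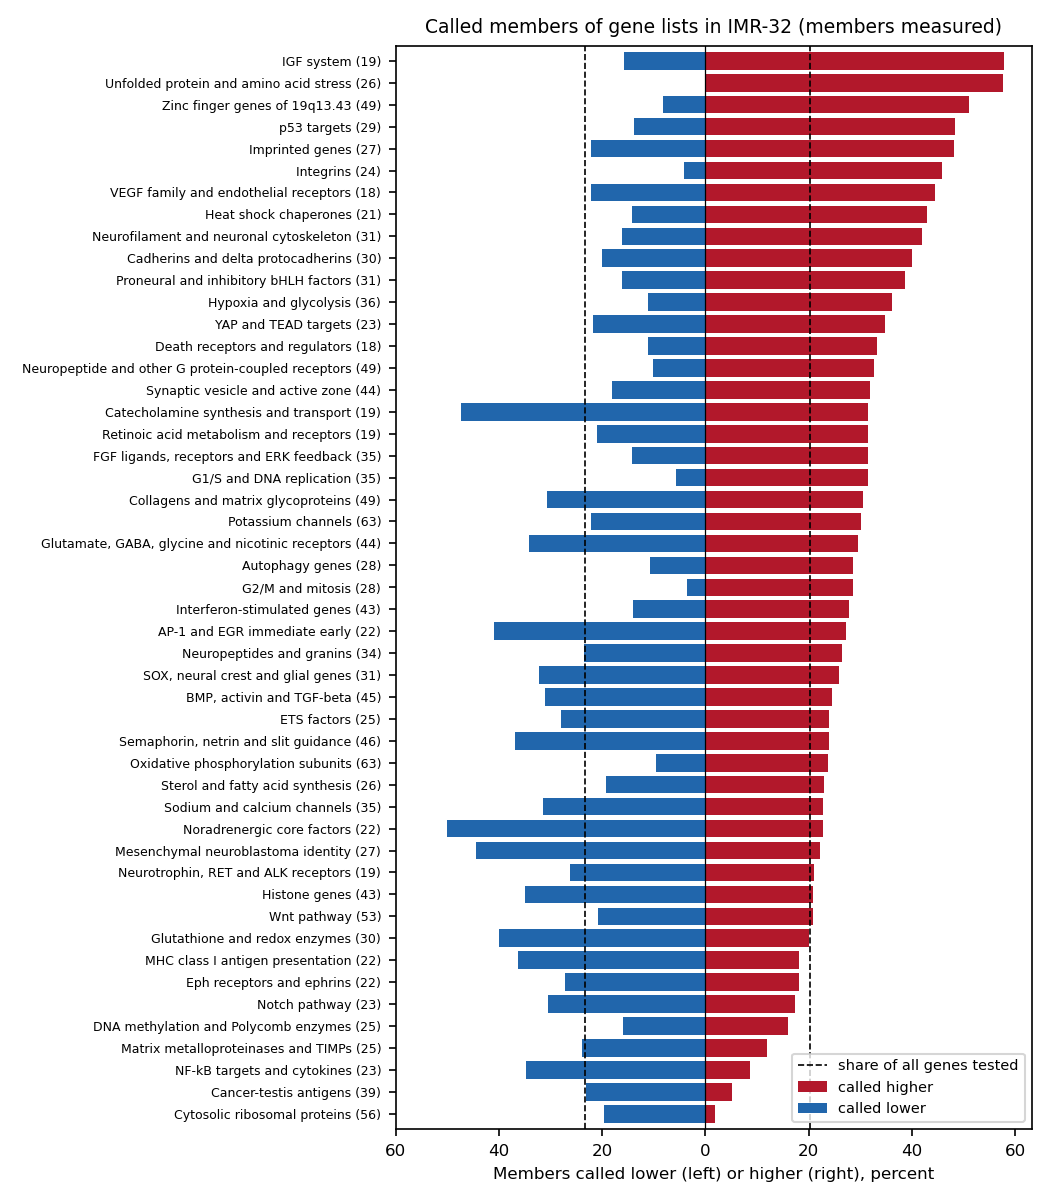
Share (percent, x axis) of the measured members of each gene list with 18 or more members that were called lower (bars to the left) or higher (bars to the right), with the number measured in brackets. Dashed lines mark 23.3% lower and 20.3% higher over all genes tested. The IGF, unfolded protein and 19q13.43 zinc finger lists have the largest shares of rises and the ribosomal list the smallest.

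The zinc finger genes of 19q13.43, to which ZNF671 belongs, rose on a broad front. Of 49 measured, 25 were higher and 4 lower, with a median of 0.20 (18 and 2 with 0 and 48 h left out). ZNF154 was at log2 8.86 to 9.29 (median 9.12) in the HOXC9 arm and 4.52 to 4.84 (median 4.72) in the GFP arm and rose by 4.41 ± 0.094 (adjusted p = 9.35e-07). The rest were small: ZNF551 stood at log2 10.26 to 10.50 (median 10.31) in the HOXC9 arm and 9.41 to 9.76 (median 9.57) in the GFP arm, a difference of 0.77 ± 0.054 (adjusted p = 0.000116), and ZNF274, a repressor that recruits a histone methyltransferase to such genes, rose by 0.69 ± 0.040 (adjusted p = 4.67e-05). Among 30 members above log2 8 in both arms 19 were higher and 0 lower, with a median of 0.25. The 582 other chromosome 19 genes of that brightness had a median of -0.11, with 41 higher and 177 lower.

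Imprinted genes were often called, 13 higher and 6 lower of 27, of which 9 changed at least 2-fold. MEST, an imprinted hydrolase gene, was at log2 10.40 to 10.98 (median 10.52) in the HOXC9 arm and 8.77 to 8.99 (median 8.85) in the GFP arm and rose by 1.71 ± 0.064 (adjusted p = 7.86e-06). NNAT, neuronatin, was at log2 13.74 to 14.26 (median 13.81) in the HOXC9 arm and 12.09 to 12.34 (median 12.27) in the GFP arm and rose by 1.64 ± 0.070 (adjusted p = 1.31e-05). DIRAS3, a Ras-like tumour suppressor, rose by 1.41 ± 0.084. GRB10 and DLK1, given above, were the largest rises of the list. Histone genes leaned lower, 15 of 43 against 9 higher, with H2AC6 at log2 6.61 to 7.07 (median 6.81) in the HOXC9 arm and 8.74 to 9.23 (median 9.14) in the GFP arm and -2.25 ± 0.089 (adjusted p = 9.52e-06), although its second probe gave -0.35 and histone probes may read several near-identical copies.

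Small differences ran along chromosomes. Of 477 chromosome 12 genes above log2 8 in both arms 232 were higher and 25 lower, with a median difference of 0.19, against 19.4% higher and 25.6% lower and a median of -0.03 over 9263 such genes with a known order. The chromosome 12 median was between 0.17 and 0.22 at each of the 6 hours. HOXC9 lies on that chromosome. Chromosome 6 had a median of 0.16 with 223 of 500 higher and 119 lower, and was uneven within itself.

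Medians over runs of 51 neighbouring genes showed where. Over 8113 runs the median was -0.03 and the 5th and 95th percentiles were -0.16 and 0.21. On chromosome 6 the runs from SNAP91 to OSTM1, TSPYL4 to LTV1 and FBXO30 to AFDN had medians of 0.42, 0.42 and 0.39. In the last of these 43 of 51 genes were higher and 0 lower, and the hourly medians ran from 0.30 to 0.44. The run from HLA-F to SKIC2 on the same chromosome, which holds class I genes, had a median of -0.31 with 0 higher and 40 lower. On chromosome 17 the run from TK1 to CCDC57 had a median of -0.35, with 1 higher and 36 lower. The run from LLPH to SNRPF on chromosome 12 had 0.38, with hourly medians from 0.13 at 24 h to 0.51 at 0 h. In the SK-N-AS arrays the median of chromosome 12 was -0.05 and that of chromosome 6 was -0.28. DNA copy number was not measured.

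**Figure D4:**
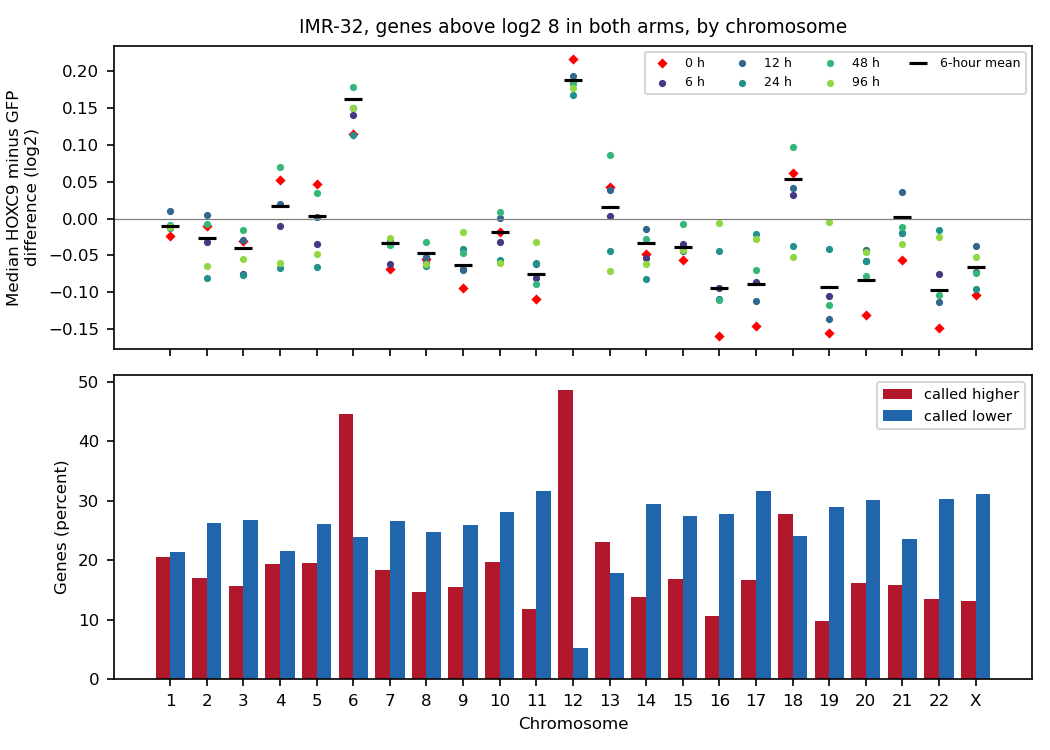
Genes above log2 8 in both arms by chromosome: above, the median HOXC9 minus GFP difference (log2) at each hour, with diamonds for 0 h and a bar for the mean over 6 hours, and below, the percent of genes called higher or lower. Chromosomes 6 and 12 lie above 0 at all 6 hours, and chromosome 12 has 48.6% of its genes higher and 5.24% lower.

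The differences were present at 0 h. A fit to 6 to 96 h alone called 6575 genes (38.2%), and 6091 of them (92.6%) had the same sign at 0 h, which that fit did not use. That share was not taken over all genes. Over the 9358 genes above log2 8 in both arms, the 0 h difference correlated at 0.79 with the mean of the other hours. The same correlation was 0.83 to 0.93 for each later hour. The median ratio of the 0 h difference to the later one, over the 6575 genes, was 1.02. Of 1316 genes at least 2-fold apart at 6 to 96 h, 81 had the opposite sign at 0 h, and 0 of 464 with 50 units added. Constancy differed between genes: hourly differences ran from 4.49 to 4.78 for FAM162B, but from 7.33 to 9.22 for EPHA5, 5.75 to 8.39 for RPRM, 4.24 to 7.92 for NEUROD6 and 1.99 to 3.61 for DLK1.

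EPAS1, a hypoxia-inducible transcription factor, was chosen after its values were seen. Among genes whose brighter arm exceeded log2 9, it was the 1 gene called and at least 2-fold apart at 6 to 96 h and under 0.5 apart at 0 h. It was at 11.90 in the HOXC9 array and 11.59 in the GFP array of 0 h, 0.31 apart. At the later hours the differences were 1.03, 1.10, 1.11, 1.12 and 0.84, and over 6 to 96 h the difference was 1.04 (adjusted p = 0.000216).

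No gene passed the test for a difference that grew or shrank with hour (0 of 17199, 0.00%, smallest limma adjusted p = 0.917), and 786 (4.57%) had an unadjusted p under 0.05. In simulated data the test recovered 13%, 58.2% and 72.7% of genes whose difference changed by 2-, 4- and 8-fold over the hours. Likewise no gene passed for a common trend of both arms with hour (0.00%, smallest adjusted p = 0.999, 531 or 3.09% at an unadjusted p under 0.05). When 0 h was set against the other hours 25 genes (0.145%) passed, but only 1 of them averaged above log2 8. That gene, C2CD2L, which encodes a lipid transfer protein, was at 15.34 in the GFP array of 0 h and 11.77 in the HOXC9 array of that hour. Of 248 genes at least 2-fold higher at 0 h alone, 246 were at least 0.5 below their arm in the GFP array and 0 departed by that much in the HOXC9 array.

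**Figure D5:**
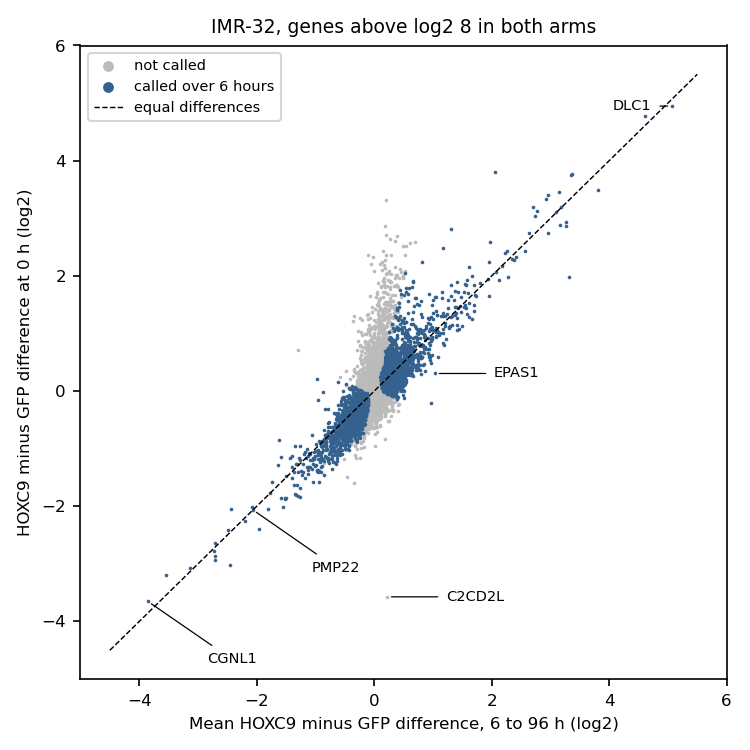
HOXC9 minus GFP difference at 0 h (log2, y axis) against the mean difference at 6 to 96 h (log2, x axis) for 9358 genes above log2 8 in both arms, with dark points for genes called over 6 hours and a dashed line where both are equal. The large differences lie along the line, a cloud of genes near 0 at the later hours lies above it, among them the 248 that were at least 2-fold higher at 0 h alone, EPAS1 lies at 0.31 against 1.04, and C2CD2L stands far below the line.

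Other probes of the same genes gave a check within the arrays. Of 4617 further probes of 3338 called genes, 77.5% had the sign of the brightest probe. Among 97 probes above log2 7 of genes at least 2-fold apart, 93 had the same sign. Of 89 genes described here with further probes, 24 had a probe at less than 1/3 of the brightest probe's difference, and in 10 of these a probe had the opposite sign. The 10 are CD44, CYCS, EFNB3, FN1, HRK, MYCN, ORC5, PDGFRB, PECAM1 and TH. The rest of the 24 are CRABP1, CX3CL1, ERBB4, FBN1, FOXD1, H2AC6, HES1, HOXC10, HSP90AB1, IGFBP3, ITGA2, NEUROD2, PDE1A and TNC.

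The IMR-32 differences were set against those of the SK-N-AS arrays, where the HOXC9 probe itself ran against the label, with a difference of -0.57. The difference of the differences was called for 7636 of 17199 genes (44.4%), and for 4088 with only 0, 48 and 96 h of both lines. Of the 4 largest rises bright in both arms, DLC1 differed between lines by 6.51 ± 0.20 (adjusted p = 2.77e-10), with -1.46 in SK-N-AS, and FAM162B by 4.56 ± 0.34 (adjusted p = 6.35e-07), with 0.07. HSPA12A moved the same way in both lines, 1.82 in SK-N-AS, and still differed by 1.95 ± 0.24 (adjusted p = 4.37e-05). CRABP1 differed by 3.84 ± 0.18 (adjusted p = 1.21e-08). Of the 4 largest falls of that brightness, ENPP2 was 3.07 in SK-N-AS, and the lines differed by -5.83 ± 0.22 (adjusted p = 1.73e-09). For CGNL1, LIX1 and CRYGD the lines differed by -2.03 ± 0.33 (adjusted p = 0.000405), -3.31 ± 0.56 (adjusted p = 0.000499) and -2.85 ± 0.27 (adjusted p = 5.03e-06). NELL1 and FMOD fell alike in size, with SK-N-AS differences of -2.70 and -2.80, and the lines were not resolved for NELL1, at -0.04 ± 0.27 (adjusted p = 0.916), or FMOD, at 0.10 ± 0.24 (adjusted p = 0.756). With only 0, 48 and 96 h, NELL1 differed between lines by -0.72 (adjusted p = 0.0277).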

How the data were processed

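Total RNA from 24 one-colour arrays was measured, 12 of them from IMR-32, and per the labels' protocols RNA was extracted with TRIzol, amplified and labelled with Cy3. The deposited intensity values, from 1.32 to 309395 units over 44708 features, share 1 distribution (ranked values of 2 arrays lay within 0.0723% of each other), and limma is named, with no version, in the submitters' processing notes. The table holds no counts, so the number of arrays limits the precision. Log2 was taken with no offset.

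The platform annotation gave 1 symbol for 27942 probes, none for 16766, and no probe had several. Of 17370 symbols 14295 were current, 2936 were updated, 129 were ambiguous and 10 were not found. Each of 17199 genes was read on the probe with the highest mean over 24 arrays (7572 genes had 2 or more). That probe is called the brightest here, although in IMR-32 alone another can be brighter, as for MYCN. Groups came from the labels. limma 3.58.1 in R 4.3.3 fitted the transgene with the hour as a block (12 arrays, 5 residual and 1.45 prior degrees of freedom), its change with log2(1 + h/6), the hour itself, and in a joint fit the difference from SK-N-AS. Tests were two-sided, adjusted by Benjamini-Hochberg. Deviations from the arm means correlated between same-hour arrays at 0.032 to 0.141, and 3 of 6 hours matched their own best, so the hour names pairs by the labels alone.

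Named were the 15 largest rises and falls in each of the sets described, up to 4 members per gene list with the smallest p, HOXC9 and MYCN, with further probes and defining members. The members and all 64 lists were chosen with earlier results of these data known. Counts of a list stand beside the share of all genes and no list was tested. On simulated data with 17199 genes the HOXC9 minus GFP test recovered 47.8%, 86.6% and 86.4% of 1.41-, 2- and 4-fold changes, and 5.77% of its calls were false. All simulations drew noise independently for each gene and array and changed 66 or 67 genes per size. In the data far more genes were called and some arrays departed in many genes at once, so these shares need not hold there. Alternatives were offsets of 16 and 50 units, other scalings, probes and filters, a joint fit, no block, and hours left out. Leaving out 0 and 48 h together and testing against 0.5 were chosen after seeing the data. Promoters and names came from RefSeq tables (GRCh38.p14), and the tables were drawn with Python 3.11.15, pandas 2.3.3, numpy 2.4.6 and matplotlib 3.10.9.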

Additional observations from a re-analysis of the deposited data

Results flagged for a closer look

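Within an arm of 6 arrays, a level was singled out when its gap to the nearest other array was too large a part of the arm's range by Dixon's test. Of 322 arms of 161 described genes 14 (4.35%) did so, and chance gives about 1 in 20. In the HOXC9 arm the array of 0 h was highest for CA12 (11.29 against 10.98 to 11.09 at the other hours), GABRE (8.41 against 8.07 to 8.14), HTR3A (11.75 against 10.89 to 11.16), INHBA (7.56 against 6.38 to 6.81), MEST (10.98 against 10.40 to 10.58) and NNAT (14.26 against 13.74 to 13.85). MYCN was lowest at 12 h in that arm, 14.15 against 14.61 to 14.84. In the GFP arm the array of 0 h was highest for SPRY1 (2.30 against 0.62 to 0.92) and SYT6 (5.001 against 4.32 to 4.58). The GFP array of 96 h was highest for EPHA5 (2.22 against 0.42 to 0.47) and lowest for NPTX1 (3.68 against 4.38 to 4.64) and NPY (8.11 against 8.38 to 8.54), and that of 24 h was highest for NEUROD6 (3.14 against 0.51 to 0.60) and PECAM1 (4.17 against 3.22 to 3.40). The HOXC9 minus GFP difference kept its sign at all 6 hours for the 14 genes.

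The HOXC9 minus GFP difference itself differed between IMR-32 and SK-N-AS, by the test of the difference in a limma fit of both lines, for all 8 genes compared as the largest rises and falls. IMR-32 minus SK-N-AS was 6.51 for DLC1, 4.56 for FAM162B, 1.95 for HSPA12A, 3.84 for CRABP1, -2.03 for CGNL1, -3.31 for LIX1, -2.85 for CRYGD and -5.83 for ENPP2. In SK-N-AS the HOXC9 probe itself stood at a difference of -0.57, against its label.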

How the results depend on the processing

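The count of 7485 called genes was 4951 in a joint fit with the SK-N-AS arrays and 1254 when tested against a difference of 0.5, where 62.2% were higher in place of 46.5%. Leaving out 1 hour gave 5895 to 6931, and leaving out 0 and 48 h gave 5069, 4718 of them among the 7485. The count of 1370 genes at least 2-fold apart was 658 with 16 units added, 485 with 50 units added and 404 among genes averaging above log2 7, and 1293 to 1384 with 1 hour left out. Without the replicate block for hour, 7403 genes were called, 6835 of them shared, and 1394 at least 2-fold, so pairing by hour changed neither count by over 1.5 times. No gene was called for a change with hour in any fit that left out 1 hour (0 to 0), while 0 h against the other hours gave 25. For the common trend with hour the counts were also 0 to 0. HOXC9 differed by 3.97 to 4.17 with 1 hour left out. The 7636 genes that differed between lines became 4088 with 0, 48 and 96 h alone. The share of genes with their later sign at 0 h was 93.9% above log2 7 and 93.8% among those at least 2-fold apart, in place of 92.6%. The share of further probes with the sign of the brightest was 84.5% above log2 7 and 79.1% for genes at least 2-fold apart, in place of 77.5%.

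Over 290 named genes, 127 of their values under an alternative lost the call, 5284 kept it with their sign, and 16 turned sign, all through the choice of probe. Taking the mean of a gene's probes gave BOK 0.075, CD44 0.021, DAPK1 -0.0081, KRT14 -0.276, PAFAH1B1 -0.050 and SCD -0.017. The probe of largest variance gave BOK 0.300, CD44 1.13, DAPK1 -0.405, EZH2 -0.245, KRT14 -0.943, MYC -1.20, PAFAH1B1 -0.144, RRM2 -0.213, SCD -0.212 and SDHA -0.161. The cause was not tested. Differences against dim probes depend on the floor, and depth cannot be judged from intensities.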
